A study of Mus musculus with 24 samples.

Results

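The pyruvate dehydrogenase complex, its kinases and its phosphatases were followed as 10 named genes in gastrocnemius muscle of 24 mice. They are the kinases Pdk1, Pdk2, Pdk3 and Pdk4, the phosphatase subunits Pdp1, Pdp2 and Pdpr, and the complex subunits Pdha1, Pdhb and Dlat, chosen by name among 55416 genes with a read count per mouse. All 10 were among the 16408 genes that passed the filter on low counts. Wild-type C57BL/6J mice (strain written C56BL6J in the labels), bought at 8 weeks of age, made up 4 groups of 6, namely male sham, female sham, male SMC and female SMC. SMC mice spent 8 weeks in the small mouse cage, a low acrylic box that restricts movement, whereas sham mice were ambulatory. Animals were fasted for 4 hours and given ketamine and xylazine before tissue was taken. Whether these mice were housed alone or in pairs was not given in the sources used here. The comparisons ask how physical inactivity changed the messenger RNA of these genes in each sex.

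The 24 libraries held 23026627 to 36880413 counts. The muscle markers Ckm, at 10112 to 18721 CPM (counts scaled to a common library size), and Acta1, at 15713 to 27217 CPM, were high in every mouse. Summed over 6 muscle markers, female sham 8 (139983 CPM) and male sham 1 (140643 CPM) were lowest. The same mice were highest in summed red blood cell markers, at 1852 and 1585 CPM. Female sham 8 was also lowest of its group in Pdk1, Pdk2, Pdp1, Pdpr, Pdha1, Pdhb and Dlat. The muscle marker sum lay between 140643 and 284222 CPM in male sham and between 260246 and 332127 in male SMC mice. In females it lay between 139983 and 368263 CPM in sham and between 262968 and 332162 in SMC mice. No library went against its sex label. A pair of sham mice stood apart in slow fibre genes, namely male sham 4 and female sham 7. Their 10 slow fibre markers summed to 91.4 and 76.4 CPM, against 1252 to 2491 CPM in the other male sham and 1375 to 3215 CPM in the other female sham mice. Results that rest on these mice are given with and without them. In whole muscle, fewer cells of a type and less RNA per cell cannot be told apart.

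Pyruvate dehydrogenase sits in the mitochondrial matrix and turns pyruvate from glycolysis into acetyl-CoA, which commits carbohydrate carbon to oxidation. Its kinases phosphorylate the E1 alpha subunit and switch the complex off, and its phosphatases remove the phosphate and switch it on. In skeletal muscle PDK4 is known to rise in fasting and to spare glucose while fatty acids are burned, and PDK2 is the other main muscle kinase.

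The stretches before the start sites of 2 kinase genes are shown because Pdk4 was the only gene of the 10 to pass the test after SMC, while Pdk2, the next most abundant kinase, did not. Both are the 250 bases upstream of a RefSeq start, read 5′ to 3′ on the gene's strand from GRCm38.p6, an older build than the GRCm39 named for the counts. Pdk4 lies at chr6:5496279-5496528 and Pdk2 at chr11:95041372-95041621, both on the minus strand. Capitals mark motif matches on either strand, ATTGG (the reverse complement of the CCAAT box) in both and CACGTG (an E-box, the same on both strands) in Pdk2.
Pdk4: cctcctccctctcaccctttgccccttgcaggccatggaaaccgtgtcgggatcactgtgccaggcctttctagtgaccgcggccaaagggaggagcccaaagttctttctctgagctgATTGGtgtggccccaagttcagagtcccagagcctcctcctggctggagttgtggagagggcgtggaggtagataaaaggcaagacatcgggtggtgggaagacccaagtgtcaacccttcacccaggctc
Pdk2: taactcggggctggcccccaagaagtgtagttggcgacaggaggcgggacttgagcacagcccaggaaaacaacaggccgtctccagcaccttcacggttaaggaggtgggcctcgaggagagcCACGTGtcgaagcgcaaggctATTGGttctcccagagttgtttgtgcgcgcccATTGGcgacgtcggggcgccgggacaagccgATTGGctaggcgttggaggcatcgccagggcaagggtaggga
The Pdk4 stretch held 58.8% G and C with 6 CpG pairs, and that of Pdk2 held 62.4% with 19, where the median of 32851 such windows was 52.4% with 6. Pdk4 had 1 ATTGG, starting 131 bases before the start site. Pdk2 had 3, starting 105, 73 and 42 bases before it, and its CACGTG started 126 bases before it. A second RefSeq start of Pdk2, whose window lies at chr11:95040876-95041125 with 58.8% G and C and 12 CpG pairs, had no match to any motif searched. Of all windows, 33.8% held a CCAAT box in either direction and 6.02% the E-box. The FoxO core TGTTTAC (3.17% of windows), the nuclear receptor half-site AGGTCA (14% of windows), the glucocorticoid half-site AGAACA (16.1%), GGGCGG (32.7%) and TATAAA (12.4%) were searched on both strands and had no match in either stretch, which describes these letters and this window alone.

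The 10 genes differed widely in level. Per kilobase of exon, Pdk4 was the highest in every group, at 508 ± 131 CPM per kb in the male sham group and 581 ± 122 in the female one (SD, n = 6), and 356 ± 93.9 and 267 ± 122 in the SMC groups. Pdk2 and Pdha1, the E1 alpha subunit, followed, and their male sham levels of 123 ± 12.3 and 111 ± 16.2 CPM per kb lay within the sum of their SDs. Pdpr, the regulatory subunit of the phosphatase, stood at 36.6 ± 2.43 CPM per kb in male sham, Pdhb (E1 beta) at 29.8 ± 4.08 and Dlat (E2) at 28.9 ± 6.09, and the last pair differed by less than their SDs. The catalytic phosphatase Pdp1 had 11.99 ± 3.89 CPM per kb there, Pdk1 8.02 ± 1.29 and Pdp2 2.71 ± 1.32. Pdk3 was lowest at 0.363 ± 0.0881 CPM per kb, from 9 to 46 counts per library over all mice, so its values carry the largest counting error.

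**Figure D1:**
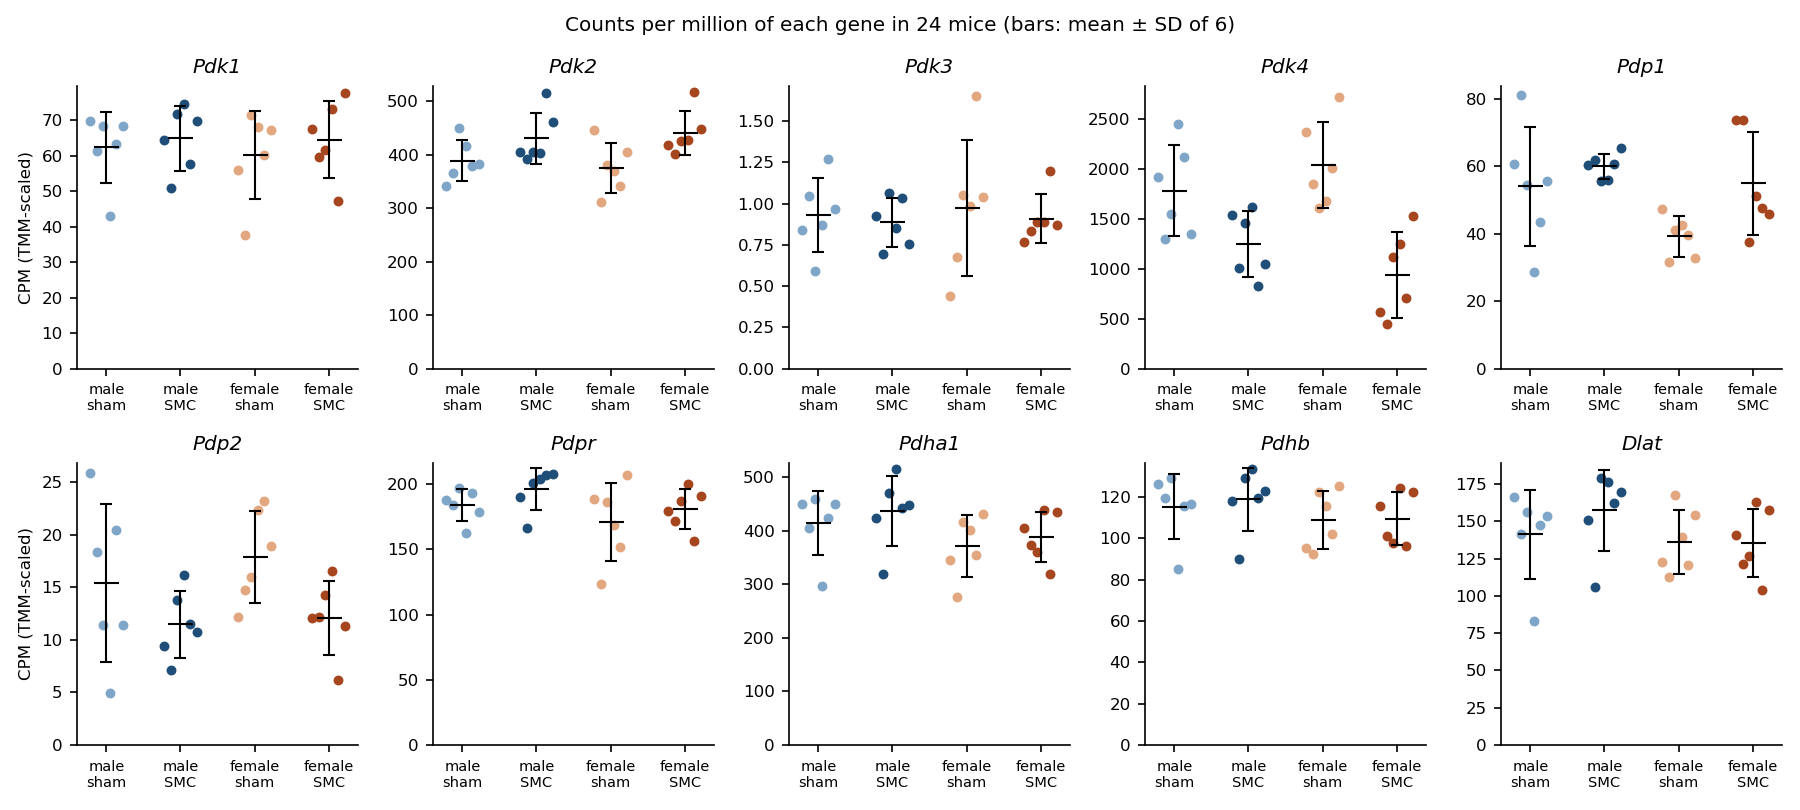
CPM of each of the 10 genes (y axes from 0, one panel per gene) in every mouse of the 4 groups (x axis), with bars for the mean ± SD of 6 mice. Pdk4 in female SMC mice lies between 448 and 1530.2 CPM, below all female sham mice, while the panels of Pdha1, Pdhb and Dlat overlap across the groups.

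Pdk4 was lower after SMC. In female sham mice it lay between 1614 and 2722 CPM (median 1930.3) and in female SMC mice between 448 and 1530.2 CPM (median 913). Every female SMC mouse was below every female sham mouse, and SMC mice 19 and 20 were lowest, at 566 and 448 CPM. In male sham mice it lay between 1304 and 2453 CPM (median 1735) and in male SMC mice between 827 and 1620.2 CPM (median 1254). The male groups overlapped, with 3 of 6 SMC mice below the lowest sham mouse and 6 of 6 below the sham median.

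Averaged over the sexes, the log2 fold change of Pdk4 was -0.82 (SE 0.18, edgeR quasi-likelihood test with Benjamini-Hochberg adjustment, FDR 0.0166), which is 0.567-fold with a 95% interval of 0.441 to 0.730. Pdk4 was the single member among 10 called in this comparison, in which 2.36% of all genes tested were called (1.03% higher and 1.33% lower). In females the log2 fold change was -1.12 (SE 0.25, FDR 0.0496 by the same edgeR test), 0.459-fold with an interval of 0.321 to 0.657. Pdk4 was again the single member called, where 0.341% of genes were called and 0.219% fell, and the groups of 0.634% of genes were separated in this direction. In males the log2 fold change was -0.51 (SE 0.25, unadjusted p = 0.0503 and FDR 0.456 by the edgeR test), and the call rate over all genes was 0%. In that male comparison edgeR called 0 genes, with 1805 genes at an unadjusted p under 0.05, and DESeq2 called 133. An exact two-sided permutation test of log2 CPM gave p = 0.0411 in males and p = 0.00216 in females, the smallest that 924 relabelings allow. It was run for Pdk4 alone, outside the planned tests, and its p is not adjusted for the 10 genes. The female value follows from the separation of the groups.

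The female call sits at the threshold. It was lost with RLE factors (edgeR FDR 0.0515), with limma voomWithQualityWeights (FDR 0.0609), with no filter (FDR 0.0537), with the 12 female mice alone (FDR 0.153), and in 20 of 24 fits that each left out a mouse (edgeR FDR up to 0.129, without female SMC 23). The averaged call held in all 24 of those fits, at an edgeR FDR of 0.00829 to 0.0338. Male sham 4 and female sham 7, the mice poor in slow fibre genes, were high in Pdk4 at 2453 and 2371 CPM. Without both, the log2 fold change of Pdk4 was -1.07 in females (edgeR FDR 0.0484), -0.41 in males (FDR 0.528) and -0.74 on average (FDR 0.0307).

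**Figure D2:**
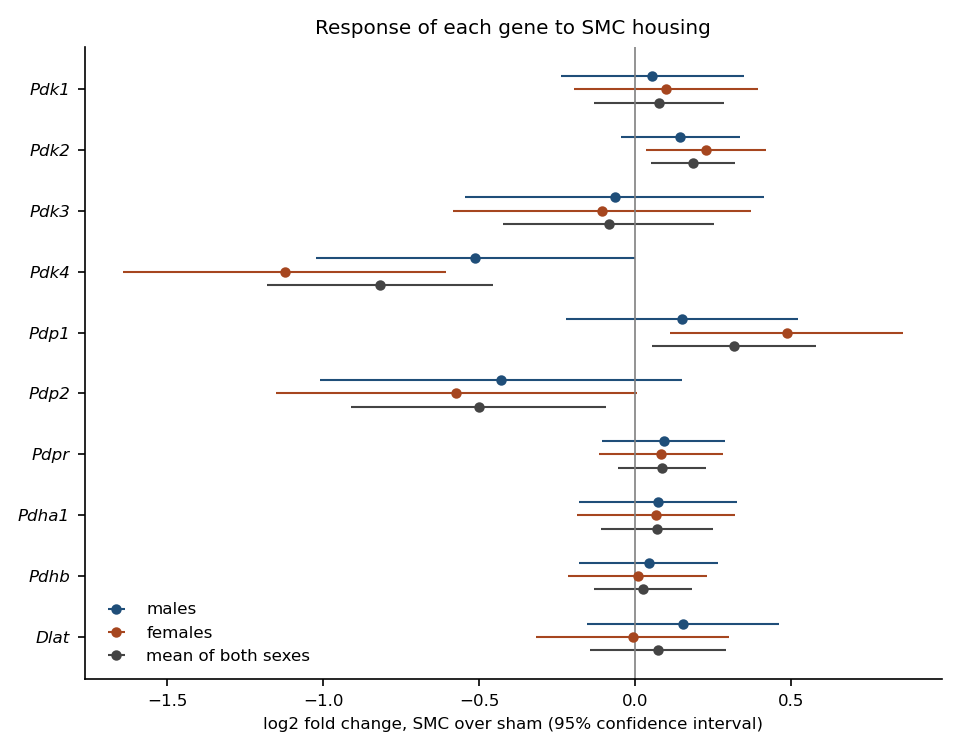
Log2 fold change of SMC over sham (x axis) with its 95% confidence interval for each of the 10 genes (y axis) in males, in females and averaged over the sexes. The Pdk4 intervals reach from -1.64 to -0.61 in females and from -1.18 to -0.45 on average, while those of Pdk1, Pdk3, Pdpr, Pdha1, Pdhb and Dlat include 0 in all 3 comparisons.

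The male and female responses of Pdk4 were compared directly. The male effect minus the female effect was 0.61 on the log2 scale (SE 0.35, 95% interval -0.11 to 1.33, edgeR FDR 0.955). This does not show that the sexes differ, and the interval does not show that they respond alike. The edgeR test of this difference called 0 of 16408 genes, with 841 at an unadjusted p under 0.05, and DESeq2 called 1.

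Pdk2, a kinase found in most tissues, had a higher mean in both SMC groups but did not pass the test. It lay between 341 and 450.2 CPM in male sham mice (median 380.1) and between 392 and 516 CPM in male SMC mice (median 405). In females the sham mice lay between 312 and 445 CPM (median 375) and the SMC mice between 402 and 518 CPM (median 426). The groups overlapped in both sexes. Its log2 fold change was 0.23 in females (SE 0.09, edgeR unadjusted p = 0.0216, FDR 0.290), 0.15 in males (SE 0.09, FDR 0.604) and 0.19 on average (SE 0.07, FDR 0.128). With library totals in place of TMM factors the average was 0.07.

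Pdk1 and Pdk3 gave values near 0 and no call. Pdk1, a kinase known as a target of hypoxia signalling, had log2 fold changes of 0.06 in males (95% interval -0.24 to 0.35) and 0.10 in females (-0.20 to 0.39). Pdk3 had -0.07 in males (-0.55 to 0.41) and -0.10 in females (-0.58 to 0.37), and all 4 edgeR FDR values were at or above 0.835. The widths of the Pdk3 intervals mean that a moderate change of this scarce transcript could have been missed in these data.

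Pdk4 took a smaller part of the kinase transcripts in SMC mice. Of the summed level of the 4 kinases per kilobase, Pdk4 made up 81.8 ± 2.71% in female sham and 61.7 ± 10.96% in female SMC (SD, n = 6), while in males the share was 78.8 ± 4.44% with sham and 70.2 ± 7.46% with SMC housing. Pdk2 made up 17.02 ± 2.43% and 36.0 ± 10.5% in the female groups and 19.8 ± 4.12% and 28.1 ± 7.32% in the male groups. Pdk1 held between 0.663% and 2.92% in single mice, and Pdk3 at most 0.126%. The ratio of Pdk4 to Pdk2 was 4.91 ± 0.842 in female sham against 1.93 ± 0.882 in female SMC, and 4.16 ± 1.09 in male sham against 2.69 ± 0.875 in male SMC. In female SMC mouse 20 both kinases were at nearly the same level, with a ratio of 1.004. The summed kinase level was 708 ± 131 and 415 ± 124 CPM per kb in the female groups and 640 ± 131 and 501 ± 84.8 in the male groups. These shares restate the counts of Pdk4 and Pdk2 and were given no test.

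**Figure D3:**
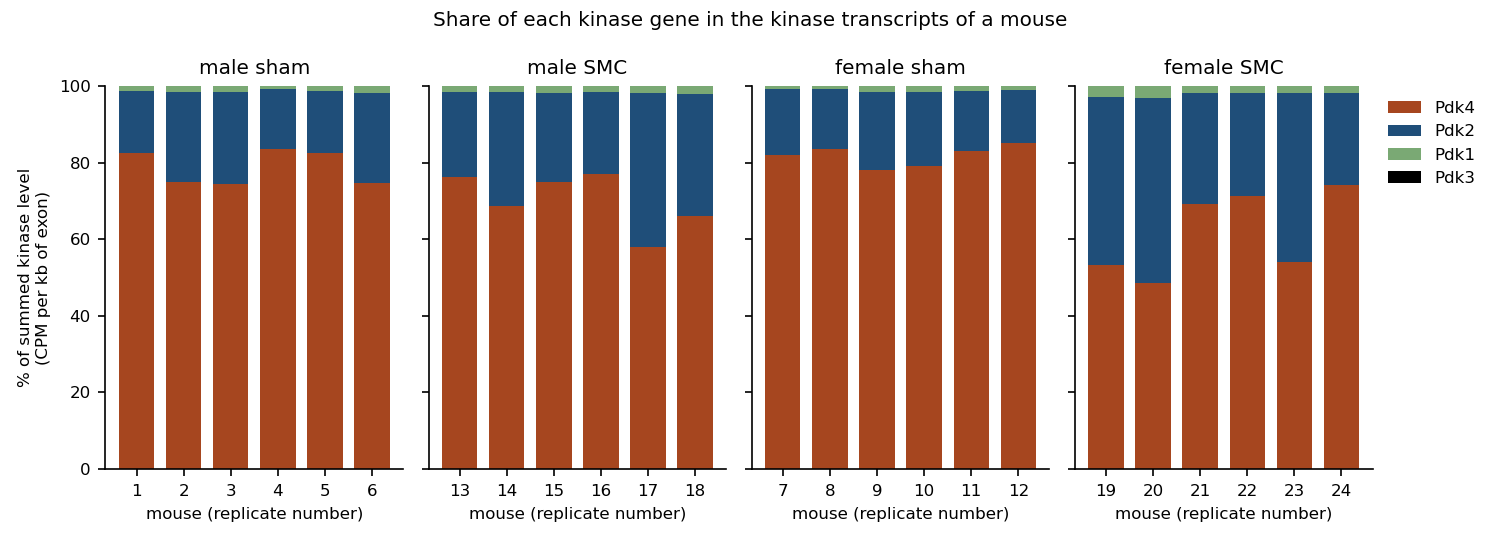
Share of each kinase gene in the summed kinase level per kilobase of exon (y axis, percent) in each mouse (x axis, replicate number), 1 panel per group. Pdk4 takes 77.9% to 85.0% in female sham mice and 48.6% to 74.2% in female SMC mice, with Pdk2 filling most of the rest.

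The phosphatase genes gave smaller values in opposite directions, none of which passed the edgeR test of all 24 mice without a covariate. Pdp1, the calcium-sensitive catalytic subunit of muscle, lay between 31.6 and 47.4 CPM in female sham mice (median 40.4) and between 37.6 and 73.8 CPM in female SMC mice (median 49.4), where mice 19 and 20 were highest. In males it lay between 28.8 and 81.2 CPM in sham (median 55.1) and between 55.7 and 65.6 CPM in SMC (median 60.5). Its log2 fold change was 0.49 in females (SE 0.18, edgeR FDR 0.237), 0.15 in males (SE 0.18, FDR 0.823) and 0.32 on average (SE 0.13, FDR 0.186). Both sexes overlapped.

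Pdp2, the other catalytic subunit, known to respond to insulin and feeding, lay between 12.1 and 23.2 CPM in female sham mice (median 17.5) and between 6.17 and 16.6 CPM in female SMC mice (median 12.1). In males it lay between 4.93 and 25.8 CPM in sham (median 14.9) and between 7.16 and 16.2 CPM in SMC (median 11.1), so the groups overlapped. The log2 fold change was -0.57 in females (SE 0.28, edgeR FDR 0.409), -0.43 in males (SE 0.28, FDR 0.616) and -0.50 on average (SE 0.20, FDR 0.181). Both sham mice poor in slow fibre genes had the lowest Pdp2 of their groups, at 4.93 and 12.1 CPM. Without them the averaged value was -0.64 and passed the test (edgeR FDR 0.0394). When the fit included the slow fibre score, Pdp2 passed on average (-0.70, edgeR FDR 0.0143) and in females (-0.87, edgeR FDR 0.0487). Pdpr had log2 fold changes of 0.09 in males and 0.08 in females (SE 0.10 each, edgeR FDR 0.790 and 0.796). The ratio of Pdp1 to Pdp2 per kilobase was 2.94 ± 1.06 in female sham, 6.25 ± 2.52 in female SMC, and for the male groups it was 5.13 ± 1.88 and 7.14 ± 2.35 (SD, n = 6, no test).

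The subunits of the complex itself did not differ beyond the spread between mice. Pdha1 lay between 298 and 459 CPM in male sham (median 437), between 320 and 516 in male SMC (median 445), between 276 and 431 in female sham (median 379) and between 319 and 439.5 in female SMC (median 389). Its log2 fold change was 0.08 in males (95% interval -0.18 to 0.33) and 0.07 in females (-0.19 to 0.32). Pdhb gave 0.04 (-0.18 to 0.27) and 0.01 (-0.21 to 0.23), and Dlat gave 0.15 (-0.16 to 0.46) and -0.01 (-0.32 to 0.30). All 6 edgeR FDR values were at or above 0.772, and with library totals or with the slow fibre score in the fit several of these signs turned.

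The 3 subunits kept close to a fixed proportion from mouse to mouse. Pdhb per kilobase was 0.269 ± 0.0119 of Pdha1 in male sham, 0.264 ± 0.00769 in male SMC, 0.285 ± 0.0196 in female sham and 0.272 ± 0.0111 in female SMC (SD, n = 6). Dlat was 0.258 ± 0.0234, 0.274 ± 0.0149, 0.281 ± 0.0222 and 0.265 ± 0.0143 of Pdha1 in the same order. By contrast Pdk4 relative to Pdha1 was 4.80 ± 2.10 in male sham, 3.06 ± 0.685 in male SMC, 5.95 ± 1.37 in female sham and 2.53 ± 0.9997 in female SMC. Pdha1 shares 603 bases of exon with the antisense gene Map3k15 (14 to 99 counts per library) and Pdpr shares 169 with 9430091E24Rik (27 to 63 counts). The strand setting of the counting was not given in the sources used here, so reads in those stretches cannot be told apart, but both partners held few counts. Pdha2, the copy of Pdha1 known from testis, had 0 counts in every library.

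Sex differences were also tested in each housing. None of the 10 genes passed in sham mice, where 1.97% of genes tested were called, or in SMC mice, where 1.03% were called. Pdp1 in sham came nearest, with 54.0 ± 17.5 CPM in males and 39.2 ± 6.003 in females (log2 difference of males from females 0.46, SE 0.18, edgeR unadjusted p = 0.0171, FDR 0.198). Male sham 4 had the lowest Pdp1 of its group, at 28.8 CPM, and without it the difference was 0.60 and passed (edgeR FDR 0.0399). Pdk4 differed by -0.19 in sham (SE 0.25, edgeR FDR 0.748) and by 0.42 in SMC (SE 0.25, FDR 0.602).

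Several of the genes followed the slow fibre score of a mouse, which is the mean log2 CPM of 10 slow fibre markers. Values were centred on the group mean, and 10 correlations were computed with permutation within groups. Male sham 4 and female sham 7 form a cluster of their own at low score, so the values over the other 22 mice are given first. Over these, Dlat had a Pearson r of 0.89 (permutation p = 1e-05, the smallest that 100000 resamples can give, 5e-05 adjusted over the 10 correlations) and a Spearman rho of 0.84 (permutation p = 1e-05). Pdha1 had r = 0.81 and rho = 0.75, Pdhb r = 0.80 and rho = 0.74, Pdk1 r = 0.74 and rho = 0.77, Pdpr r = 0.73 and rho = 0.80, and Pdp2 r = 0.65 and rho = 0.59. The adjusted permutation p of these 6 genes was at most 0.00347 for r and 0.0167 for rho. The genes outside the 10 were not correlated with the score, so a trait particular to these 6 is not shown. Leaving out male SMC 13 and 14 as well, the lowest of the 22 by score, r was 0.55 to 0.87 for the same 6.

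Pdk2 (r = 0.16, rho = 0.16), Pdk3 (r = -0.03, rho = -0.06) and Pdp1 (r = -0.17, rho = -0.16) showed no such relation over the 22 mice, with adjusted permutation p of 0.532 or more. Pdk4 had r = 0.42 (adjusted permutation p = 0.105) and rho = 0.57 (adjusted permutation p = 0.0192). Leaving out male SMC 13 and 14 as well, r of Pdk4 was 0.61, above that of Pdp2 (0.55), with no test. In the test as planned, over all 24 mice, r was 0.73 for Pdhb, 0.73 for Pdp2, 0.72 for Dlat and 0.64 for Pdha1. Their adjusted permutation p was 0.00035, 0.0002, 0.0005 and 0.0282. Pdk1 (r = 0.57, adjusted permutation p = 0.0541) and Pdpr (r = 0.25, adjusted permutation p = 0.485) did not pass by r. Both passed by rho (adjusted permutation p = 3.33e-05 and 0.029). The test over 22 mice was added after seeing the data. Over all 24 mice Pdk2 had r = -0.33 and Pdk4 had r = -0.10. The signs of Pdk2 and Pdk4 turned without the mice of low score, and also with library totals over all 24 mice. By rho over 24 mice Pdk4 had 0.18 and Pdk2 -0.03. With the score as a covariate, the averaged log2 fold change of Pdk4 was -0.78 (edgeR FDR 0.0215). The slow fibre markers themselves had a median log2 fold change of 0.51 in males and 0.61 in females with 0 of 10 called. Both medians include male sham 4 and female sham 7. The score of the other male sham mice lay between 6.34 and 7.43, against 5.42 to 7.55 in male SMC. In females it lay between 6.62 and 7.64 in the other sham mice and between 6.47 and 8.08 in SMC. The fit with the score as covariate included male sham 4 and female sham 7, which lie far below the others in score. The r of Pdk4 with the score was -0.10 with these mice and 0.42 without them. That fit is therefore no test of the part of these markers in these results, and none was run.

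**Figure D4:**
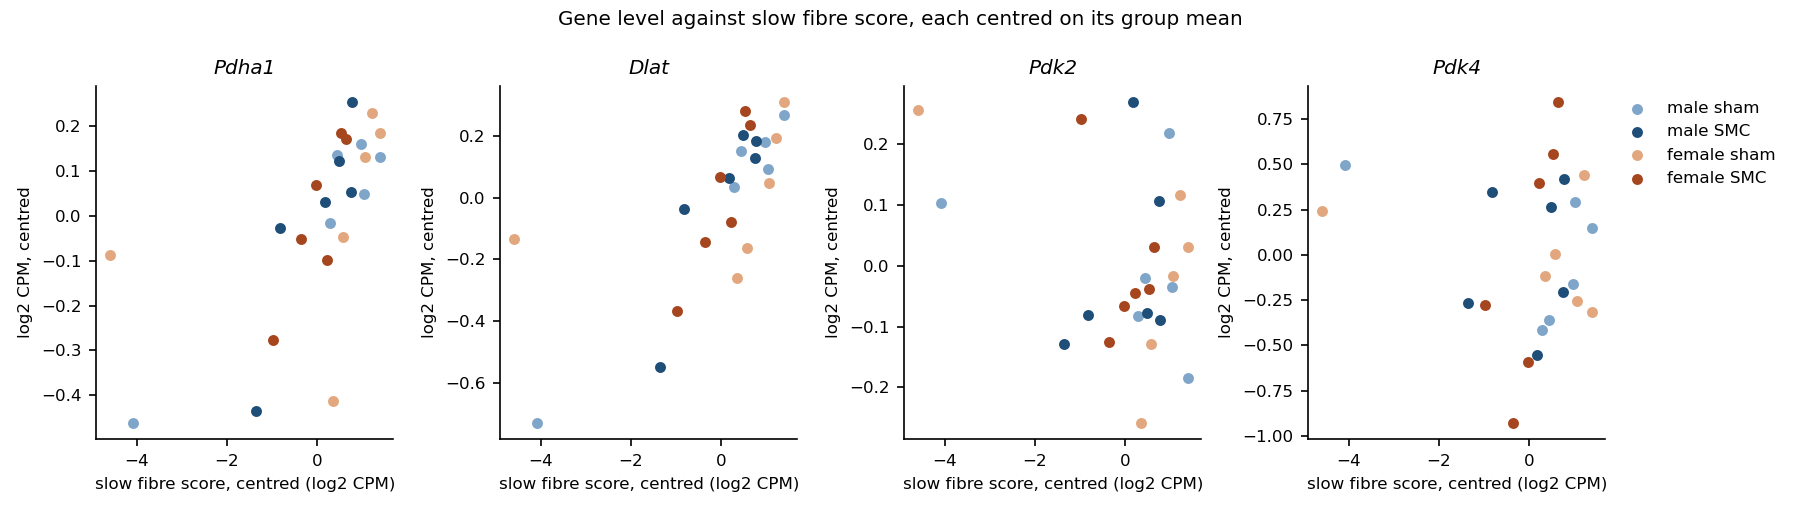
Log2 CPM of 4 of the genes (y axes) against the slow fibre score (x axes), each centred on its group mean, with 1 point per mouse coloured by group. Pdha1 and Dlat climb with the score among the 22 mice on the right (r = 0.81 and 0.89), and the points at far left are male sham 4 and female sham 7, which are part of the group means drawn here but not of those behind the 22-mouse r.

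Within groups Pdk4 ran against Pdp1. Of 9 correlations of Pdk4 with the other genes over 24 mice, computed after the values had been seen, that with Pdp1 had r = -0.64 (permutation p = 0.00198, adjusted over the 9 correlations p = 0.0178) and rho = -0.68 (adjusted permutation p = 0.012), and by r with Pdk4 it ranked 16384 among the 16408 genes tested. Without female SMC 20 and 19, the mice farthest from the median Pdk4, r was -0.47 (permutation p = 0.0288, adjusted p = 0.259), so the adjusted call rests on these mice. For the other 8 genes r lay between 0.01 and 0.28. The 5 genes most like Pdk4, by Pearson r of group-centred log2 CPM over 24 mice, were Lancl3 (0.74), Rnf20 (0.74), Alpk2 (0.73), Lrrc2 (0.73) and Insr (0.71). These 5 values are the top of a ranking of all genes tested and are a description with no test.

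**Figure D5:**
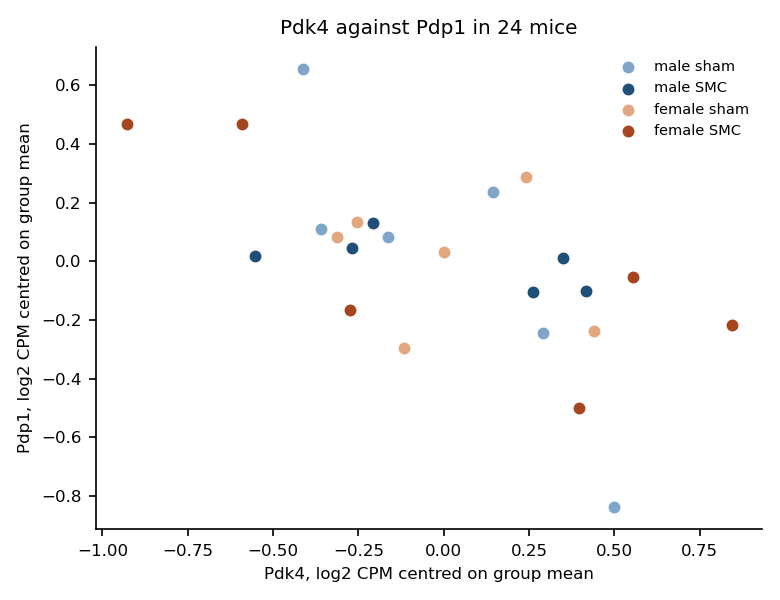
Log2 CPM of Pdp1 (y axis) against that of Pdk4 (x axis), both centred on the group mean, with 1 point per mouse coloured by group. The points fall from upper left to lower right (r = -0.64 over 24 mice), and female SMC 19 and 20 lie at low Pdk4 and high Pdp1.

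The genes around the complex were read from lists chosen by name, with earlier results of these data known. For comparison, 2879 of all 16408 genes tested had an edgeR unadjusted p under 0.05 on average, and 388 were called. With library totals many more genes of all kinds were called, as given at the end. Of 9 other complex and lipoylation genes, among them Pdhx and Dld, edgeR called 0 in the SMC comparisons, with 1 at an unadjusted p under 0.05 on average. This count rests on the setting, since 1 of the 9 was called lower on average by DESeq2, by voomWithQualityWeights, with library totals, with at least 10 counts in every mouse, with the slow fibre score in the fit and without both sham mice poor in slow fibre genes. The smallest edgeR p was that of Iba57, an iron-sulphur cluster factor needed for lipoate, with an averaged log2 fold change of -0.26 (FDR 0.0546). Of 13 genes of pyruvate entry and its other fates, including the carrier genes Mpc1 and Mpc2 and the lactate dehydrogenases, edgeR called 0 (1 at an unadjusted p under 0.05 on average), against 2 lower on average with the slow fibre score in the fit and 1 with library totals. Pyruvate carboxylase Pcx (averaged log2 fold change -0.52, edgeR FDR 0.145) and Mpc2 (-0.16, FDR 0.299) had the smallest p. The 3 thiamine cofactor genes tested gave 0 calls in edgeR and in DESeq2, with 1 at an unadjusted p under 0.05 on average. Of 8 related dehydrogenase genes edgeR called 0 after SMC (2 at an unadjusted p under 0.05 on average, and 1 called lower with library totals), where Bckdk, the kinase of the branched-chain complex, had 0.18 on average (edgeR FDR 0.100). Bckdhb, its E1 beta subunit, was lower in males than in females in sham (log2 difference -0.31, edgeR FDR 0.0308) and in SMC (-0.39, FDR 0.0059), where 1.14% and 0.347% of genes were called in that direction.

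The next lists were also chosen with earlier results of these data known, so their counts are a description. Of 16 genes known to act on Pdk4 transcription, 4 fell on average over the sexes and 0 rose, where 1.33% of all genes tested fell. They were Foxo1 (log2 fold change -1.08, SE 0.26, edgeR FDR 0.0283), Foxo3 (-0.49, FDR 0.0225), Klf15 (-0.57, FDR 0.048) and Cebpb (-0.80, FDR 0.0119), transcription factors of fasting and glucocorticoid states. Foxo1 lay between 56.7 and 256 CPM in female sham mice (median 94.0) and between 41.4 and 64.6 CPM in female SMC mice (median 54.6). The median of the 16 was -0.08, against -0.01 over all genes. Without both sham mice poor in slow fibre genes 3 of the 16 fell on average. In females alone 0 of the 16 were called in the 24-mouse edgeR fit with TMM factors. An unadjusted p under 0.05 was found there for 6 of the 16 and for 2049 of all 16408 genes tested. In other fits 2 of the 16 fell in females without both mice, 3 with library totals, 1 with the slow fibre score and 1 by DESeq2.

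Averaged over the sexes 1.33% of all genes tested fell. Of 22 genes of fasting and fatty acid oxidation, which include targets of PPAR receptors as Pdk4 does, 2 fell on average and 0 rose. They were Ucp3, a mitochondrial carrier of the inner membrane that rises in fasting (averaged log2 fold change -0.74, edgeR FDR 0.0261, and -1.13 in females, FDR 0.0496), and Acot2, a mitochondrial acyl-CoA thioesterase (-0.70, FDR 0.0242). The averaged median of the 22 was -0.15, with 1 gene called lower by voomWithQualityWeights and 6 with the slow fibre score in the fit. The female call of Ucp3 sits at the threshold. With RLE factors and by voomWithQualityWeights 0 of the 22 were called in females. Of 13 glucocorticoid-responsive genes, a list also chosen with earlier results known, 8 fell on average and 0 rose, with a median of -0.94. Mt2, a metallothionein (-1.90), Cdkn1a, a cell cycle inhibitor (-1.65), and Fkbp5, a co-chaperone of the glucocorticoid receptor (-1.41), had edgeR FDR values of 0.00296, 0.00363 and 0.0142. Ddit4, Cebpd, Mt1, Sesn1 and Klf9 were the other 5. Without both sham mice poor in slow fibre genes 7 of these 13 fell, and 5 did by voomWithQualityWeights. With library totals, where far more genes of all kinds fell as given at the end, 12 of these 13 did. Their averaged median was -0.60 without both mice and -0.60 by voomWithQualityWeights, and in males it was -1.04 with and -0.42 without both mice. Fkbp5 in sham mice ranged from 31.5 to 253 CPM in males and from 41.1 to 230.2 CPM in females, against 28.5 to 53.5 and 23.96 to 73.7 CPM in SMC, so the spread among sham mice was wide. Of the markers of other cell types edgeR called 0 in the SMC comparisons, with the following numbers at an unadjusted p under 0.05. Over all 16408 genes tested those numbers were 2049 in females and 1805 in males. In females, tendon markers had a median of -0.72 (5 of 6 lower, 4 at that p), fibroblast markers -0.42 (5 of 6 lower, 3 at that p) and adipocyte markers 0.80 (8 of 8 higher, 0 at that p). In males, Schwann cell markers had a median of 0.52 (6 of 6 higher, 3 at that p), red blood cell markers -0.46 (6 of 6 lower, 1 at that p) and adipocyte markers -0.27 (7 of 8 lower, 0 at that p). The 6 skeletal muscle markers were all higher on average over the sexes, with a median of 0.13. Of these, 1 was at that p and 0 were called, against 2879 and 388 of all genes tested. The part of all these markers in the Pdk4 result was not tested.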

How the data were processed

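Total RNA of gastrocnemius was isolated with a Direct-zol kit, and NEBNext Ultra II Directional libraries with rRNA depletion were sequenced, per the labels. The submitters' processing notes name cutadapt 1.16, STAR 2.7.9a, featureCounts 1.6, DESeq2 1.34.0 and the builds GRCm39 and mm39, with no roles given. The deposited values are raw counts per Ensembl gene and mouse, which the authors did not normalize in this table. The annotation release and strand setting were not given in the sources used here. Symbols were found for 52083 of 55416 genes, and genes without one held 0.361% of counts. Columns were assigned to mice by sample title and groups by sex and treatment.

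Genes were filtered with filterByExpr, scaled by TMM and fitted with 1 mean per group by edgeR 4.0.16 quasi-likelihood in R 4.3.3 over all 24 mice (common BCV 0.206). Tests were two-sided, with Benjamini-Hochberg FDR under 0.05 over 16408 genes. CPM uses TMM library sizes, and log2 CPM a prior count of 2. Levels per kilobase use union exon lengths of the GENCODE M21 annotation (GRCm38), matched by gene ID. Alternatives were RLE factors, library totals, DESeq2 1.42.0, limma 3.58.1 voomWithQualityWeights, at least 10 counts in every mouse, no filter, the slow fibre score as covariate, single-sex or single-housing fits, and leaving out mice. Permutations used scipy 1.17.1. None of 60 within-group pairs looked duplicated (smallest chi-square per degree of freedom 9.77). The steps were tested on simulated data. The 10 genes and all lists were chosen with earlier results of these data known. The genes named are the 10, the 5 most like Pdk4, and list members that passed the test or, in a list with none, those of smallest p. 1 such gene is not reported here. Cell type markers named beside results check the tissue. Promoter stretches came from RefSeq for 9 of the 10 genes (11 windows). Sequencing precision is limited by counting error and by 6 mice per group.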

Additional observations from a re-analysis of the deposited data

Results flagged for a closer look

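In groups of 6, a value was singled out where the gap between the highest or lowest mouse and its neighbour passed Dixon's 95% limit. Of 44 groups examined 8 were singled out, where chance alone gives about 1 in 20, or 2.2. Male sham 4 was the lowest of its group in Pdk1 (43.1 CPM, others 61.3 to 69.9), Pdha1 (298 CPM, others 406 to 459), Pdhb (85.0 CPM, others 115 to 129) and Dlat (83.1 CPM, others 141 to 166). The slow fibre score was low in male sham 4 (1.96, others 6.34 to 7.43) and in female sham 7 (1.67, others 6.62 to 7.64). Pdhb was low in male SMC 14 (90.0 CPM), which also had the lowest slow fibre score of its group at 5.42. Pdk3 was high in female SMC 23 (1.20 CPM, others 0.767 to 0.890). Male sham 4 was lowest of its group in 7 of the 10 genes and highest in Pdk4. No cause of these values was tested.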

How the results depend on the processing

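No paired analysis was possible because the replicate numbers in the labels are all different, so no number is shared between groups. The averaged fall of Pdk4 kept its direction and its call under every alternative run, at -0.94 to -0.74 on the log2 scale (-0.92 to -0.75 with a mouse left out). In females it kept its direction (-1.24 to -1.07, and -1.32 to -0.98 with a mouse left out) but not its call, as given above. Library totals shifted the median log2 fold change of all genes to -0.13 in males, -0.15 in females and -0.14 on average, and changed the averaged calls from 169 higher and 219 lower to 68 and 1793, and the female calls from 20 and 36 to 13 and 202.

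Pdp2 gained a call with the slow fibre score (on average and in females) and without both mice (on average), and Pdp1 between sham males and females without male sham 4, alone or with female sham 7. Counts of called genes changed by over 1.5 times as follows. In males, 0 became 133 with DESeq2, 93 with voomWithQualityWeights and 13 with the slow fibre score. In females, 56 became 37 with RLE factors, 215 with library totals, 268 with DESeq2, 16 with voomWithQualityWeights, 187 with the slow fibre score, 155 without male sham 4 and female sham 7 together and 14 with female mice alone. On average, 388 became 1861 with library totals, 778 with DESeq2, 189 with no filter and 733 with the slow fibre score. The difference between the sexes went from 0 to 1 with DESeq2. Between sham males and females, 324 became 179 with library totals, 575 with DESeq2, 692 with the slow fibre score, 511 without both mice and 58 with sham mice alone. Between SMC males and females, 169 became 322 with DESeq2, 546 with voomWithQualityWeights, 382 with the slow fibre score, 289 without both mice and 287 with SMC mice alone. With a mouse left out, calls ranged from 0 to 78 in males (highest without male sham 5), 0 to 147 in females (0 without female SMC 22, highest without female sham 9), 236 to 501 on average (without male sham 1 and female sham 9), 0 to 1 for the difference, 187 to 487 in sham (without male sham 2 and male sham 4) and 115 to 221 in SMC.

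Log2 fold changes near 0 turned sign, with no call. With library totals, the values were in males Pdk1 -0.083, Pdp1 -0.0015, Pdpr -0.039, Pdha1 -0.062 and Pdhb -0.094, in females Pdk1 -0.013, Pdpr -0.025, Pdha1 -0.050 and Pdhb -0.12, on average Pdk1 -0.048, Pdpr -0.032, Pdha1 -0.056, Pdhb -0.11 and Dlat -0.060. With the slow fibre score as covariate, the values were in males Pdk1 -0.00096 and Pdhb -0.012, in females Pdk1 -0.019, Pdha1 -0.039 and Pdhb -0.095, on average Pdk1 -0.010, Pdha1 -0.0090, Pdhb -0.053 and Dlat -0.038, between the sexes in SMC Pdk3 0.020 and Pdp2 0.087. Without male sham 4 and female sham 7, the values were in males Pdk1 -0.040, Pdha1 -0.013 and Pdhb -0.039, in females Pdhb -0.022, on average Pdhb -0.030 and Dlat -0.00040. With voomWithQualityWeights, the values were in females Pdhb -0.035, between the sexes in SMC Pdk3 0.020. With no filter, the values were in females Dlat 0.0040. With a mouse left out, the ranges that crossed 0 were in males Pdha1 -0.013 to 0.15, Pdhb -0.039 to 0.11, Pdk1 -0.040 to 0.12 and Pdk3 -0.17 to 0.033, in females Dlat -0.062 to 0.063, Pdha1 -0.0073 to 0.12, Pdhb -0.037 to 0.060, Pdk1 -0.0073 to 0.18 and Pdk3 -0.24 to 0.10, on average Pdhb -0.013 to 0.061 and Pdk3 -0.15 to 0.018, between the sexes in SMC Pdk1 -0.071 to 0.071, Pdk2 -0.097 to 0.016, Pdk3 -0.095 to 0.057 and Pdp2 -0.21 to 0.036, between the sexes in sham Pdk1 -0.050 to 0.15 and Pdk3 -0.21 to 0.13. The slow fibre r (alternatives chosen after seeing the data) with library totals was 0.77 for Pdk1, 0.16 for Pdk2, 0.049 for Pdk4 and 0.71 for Pdpr, and without both mice 0.74 for Pdk1, 0.16 for Pdk2, -0.026 for Pdk3, 0.42 for Pdk4, -0.17 for Pdp1 and 0.73 for Pdpr. The cause was not tested. The counts of list genes by setting and the correlations of Pdk4 with the other genes were also added after seeing the data.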
